A study of Populus tomentosa with 4 samples.

Results

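The miR397 and miR408 families are described here from small RNA libraries of Chinese white poplar (Populus tomentosa). They were taken by name from the authors' deposited table, which gave 3 names, ptc-miR397a, ptc-miR408-3p and ptc-miR408-5p, of 193 microRNA names (107 distinct sequences); the prefix ptc marks a P. trichocarpa entry and is left off below. The choice was by name and used no signal, but it was made with earlier results of these data known. The table itself lists only microRNAs called different between the tissues. The 4 libraries came from trees 20 years old grown outdoors, 2 from shoot tips (labelled SAM as well) and 2 from the leaves around them. Separate trees or pools are not named for libraries of 1 tissue, and the authors' FDR, an adjusted p-value, may then rest on technical spread. The table holds microRNAs and their predicted target loci but no messenger RNA, so the labelled tissues could not be checked against marker genes.

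MicroRNAs are short RNAs that guide Argonaute proteins to complementary transcripts, which in plants are mostly cleaved. MiR397 and miR408 are old plant families tied to copper supply: in Arabidopsis a copper-sensing transcription factor, SPL7, raises both when copper is scarce. Their known targets are secreted copper proteins, above all laccases, which oxidise monolignols during lignification, and for miR408 also plantacyanin-type blue copper proteins. A microRNA hairpin gives a 5' and a 3' arm, written 5p and 3p, and miR408-3p is the arm known to act on these targets. In poplar, miR397a is known as a regulator of laccase genes and lignin content in wood.

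The sequences are shown because target prediction and the arm comparison both rest on them. They are the deposited mature sequences, 5' to 3', with the seed, bases 2 to 8, in capitals.
miR397a: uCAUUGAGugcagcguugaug
miR408-3p: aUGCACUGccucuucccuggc
miR408-5p: cGGGGAACaggcagagcaugg
All 3 were 21 nt long and had different seeds, and no other listed name carried any of these seeds or sequences. Their values are therefore not shared with another listed name. The nearest other listed sequence stood 9 edits from miR397a and 10 from miR408-3p, while miR397a and miR408-3p were 13 edits apart. MiR397a started with U, as did 39 of the 52 listed sequences with a family name (75.0%). MiR408-3p started with A and miR408-5p with C. The GC content was 47.6% in miR397a and 61.9% in miR408-3p. MiR408-5p, at 66.7%, had the highest GC content of these 52 sequences, whose median was 48.8%.

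Both arms of miR408 could be paired with each other as a processed duplex. In the duplex of lowest energy the 5' arm and the 3' arm shared 17 base pairs, of which 1 was a G-U pair, and each arm ended in an overhang of 2 nt at its 3' end. Paired bases are in capitals in these lines, and the 3' arm is also written 5' to 3'.
miR408-5p paired: CGGGGAAcAGGCAGaGCAUgg
miR408-3p paired: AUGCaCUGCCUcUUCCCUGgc
No opposite arm of miR397a was listed.

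All 3 members had a far higher normalized abundance in leaves than in shoot tips. MiR408-3p was the abundant one: its normalized abundance, called the signal here, was 123 in shoot tips and 10242 in leaves, rank 7 of the 107 sequences in leaves. MiR408-5p had a signal of 0.394 in shoot tips and 76.9 in leaves. MiR397a was listed at 0 in shoot tips and had 51.1 in leaves. The order of the leaf signals was thus miR408-3p, miR408-5p and miR397a. In bulk tissue, fewer cells with a microRNA and less of it per cell cannot be told apart. The table gives 1 signal per tissue with no error, so replicate spread was sought in another way.

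Each low signal in the table was a sum of whole multiples of 2 steps, the value of 1 read in either library of the tissue. This held for 53 of 53 distinct signals under 60 in shoot tips and for 42 of 42 in leaves. Reads of both libraries could thus be recovered for low and middle signals, but which replicate a library is remains unknown. The libraries are called A and B within each tissue, and the letters do not pair tissues. Levels per library take the signal as the mean of both. For miR397a the leaf libraries held 54 and 41 reads, or levels of 47.7 (exact Poisson 95% interval 35.8 to 62.2) and 54.5 (39.1 to 73.9). For miR408-5p they held 84 and 60 reads, or 74.1 (59.1 to 91.8) and 79.7 (60.8 to 103). The intervals of the leaf libraries overlapped for both microRNAs. Of the 7 pairs of steps that fitted the leaf signals, 6 gave these levels and 1 gave 18.3 and 83.8 for miR397a and 26.7 and 127 for miR408-5p. The 6 differed in reads, with 108 and 123 for miR397a in one of them. Reads and widths of intervals are thus those of the pair of steps taken. The intervals cover counting error only, since reads were not counted as molecules.

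Both shoot tip libraries lay below the pooled leaf signal for all 3 members. MiR408-3p had 85 reads in shoot tip library A, a level of 66.9 (exact Poisson 95% interval 53.4 to 82.7), and 189 in library B, a level of 180 (155 to 207). These levels differed 2.69-fold between the libraries, more than counting error. The other pair of steps that fitted gave the same levels, with 378 reads in library B. Leaf reads of miR408-3p could not be recovered, because many pairs of whole numbers gave so high a signal. Against the higher shoot tip library alone the pooled leaf signal was 56.9-fold higher, and against the lower one 153-fold. MiR408-5p had 1 read in library A and 0 in library B. MiR397a had 0 in both, so the groups did not overlap for miR397a and miR408-5p. The same held for all 168 listed names recovered in both tissues (100%), so it says nothing particular of these members.

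**Figure D1:**
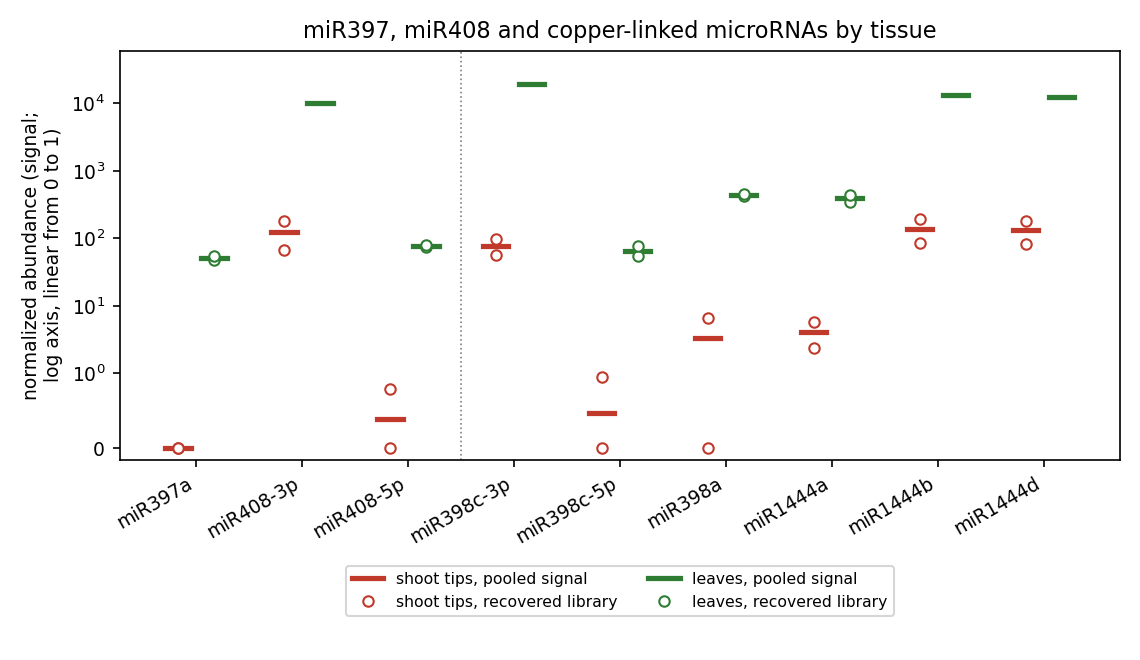
Normalized abundance (signal; log axis, linear from 0 to 1) of the 3 members, left of the dotted line, and of copper-linked relatives in shoot tips (red) and leaves (green). Bars are the deposited pooled signals and circles the levels of single libraries recovered from them, drawn only where the recovery was unique; miR397a sits at 0 in shoot tips and at 51.1 in leaves, and every leaf bar lies above both shoot tip circles.

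The authors' deposited table called all 3 lower in shoot tips. For miR408-3p the authors' deposited table gave a log2 fold change (shoot tips over leaves) of -6.34 and an FDR of 1.21e-51. For miR408-5p the authors' deposited table gave -6.90 and an FDR of 5.88e-07. The shoot tip signal behind it rests on 1 read, so the leaf signal was 195-fold higher with an exact 95% counting interval from 34.5 to 7771. The FDR of miR397a was 3.34e-06 in the authors' deposited table. The log2 fold change given there, -7.54, is a fitted value against 0 and sets no bound. Against a floor of 3 reads in 1 shoot tip library, a signal of 1.43, leaves were at least 35.8-fold higher as deposited. When the listed total excluded miR159 and miR319, this bound was 7.89-fold. These families made up 449385 of the summed signal of 515818 in shoot tips and 92883 of 393827 in leaves. Leaving them out shifted every log2 ratio by 2.18, and the folds given for miR408 are without that shift. The table lists only microRNAs with an FDR below 0.05, so 100% of names were called, and 62.2% were called lower in shoot tips (120 of 193). The direction of 3 of 3 is to be read against that share.

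Which member differed most between tissues could not be settled. By fitted log2 fold change miR397a ranked 2 from the lowest among the 107 sequences, miR408-5p 5 and miR408-3p 12. With a pseudocount of 1, the log2 ratio of the signals was -6.36 for miR408-3p, -5.80 for miR408-5p and -5.70 for miR397a, so their order turned around. The depth of shoot tip reads, 0 for miR397a and 1 for miR408-5p, limits that order.

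The 3' arm of miR408 was the more abundant arm in both tissues. In leaves the signal of the 3' arm was 133 times that of the 5' arm, which made up 0.745% of both. In shoot tips the ratio was 314, a 5' arm share of 0.318% by signal that rests on 1 read of that arm. By reads recovered with the pair of steps taken, 1 of 275 shoot tip reads of miR408 came from the 5' arm. That is a share of 0.364% (exact Clopper-Pearson 95% interval 0.00921% to 2.01%). That interval holds the leaf share, so a difference in arm use between tissues was not detectable at this depth. The log2 fold changes of the arms lay 0.57 apart.

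Of the 5 hairpins with both arms listed, the closest to miR408 in arm share was miR398c, of a family known to act on copper/zinc superoxide dismutases. Its minor arm was also 5p, with 0.341% of the signal in leaves and 0.611% in shoot tips, the latter again with 1 read of the 5' arm. The tissue order of these shares was thus opposite to that in miR408, but each shoot tip share rests on 1 read. The miR6421 hairpin had 3.80% of its signal from the minor arm in leaves and 0.755% in shoot tips. In miR403c and miR473a both arms were of the same order, with minor shares between 20.9% and 35.8%.

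**Figure D2:**
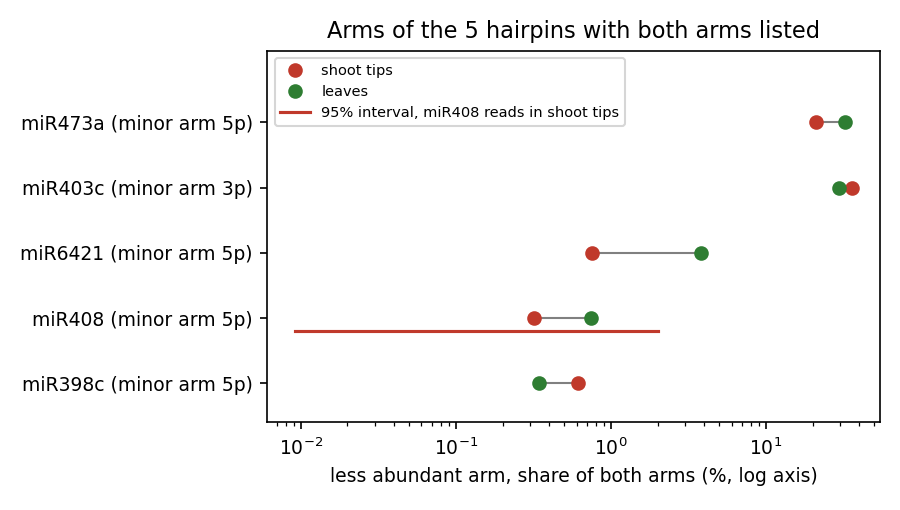
Share of the less abundant arm in the signal of both arms (percent, log axis) for the 5 hairpins with both arms listed, in shoot tips (red) and leaves (green). The red line is the 95% interval of the miR408 share from 275 shoot tip reads; it spans 0.00921% to 2.01% and covers the leaf point at 0.745%.

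Of the 3 sequences with the most similar values to each member, those of miR408-3p were all copper-linked, and those of miR397a and miR408-5p were in part known only by running numbers. Likeness was the distance on the log2(signal + 1) scale over the 2 tissue values, so it rests on 2 points and the names share all libraries. Nearest to miR408-3p were the miR1444d/e sequence, at 131 in shoot tips and 12557 in leaves (distance 0.31), and the miR1444b/c sequence, at 140 and 13289 (0.42). MiR1444 is a poplar family known to act on polyphenol oxidases. MiR1444b/c is complementary to miR1444d/e over its whole length, and no source says if counting used strand, so how reads were divided between them is uncertain. The third was the miR398b/c-3p sequence, with a mean signal of 77.4 and 19227 (1.13). Nearest to miR408-5p was miR398c-5p, at 0.476 and 65.9 (0.24), followed by miR397a (0.75) and m0791-3p, a sequence known only by a running number, at 0.787 and 40.9 (0.96). For miR397a, the nearest were a pair of numbered sequences, m0131-5p at 0 and 40.0 (0.34) and m0130-5p at 0 and 36.0 (0.49). MiR398c-5p came next (0.67).

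**Figure D3:**
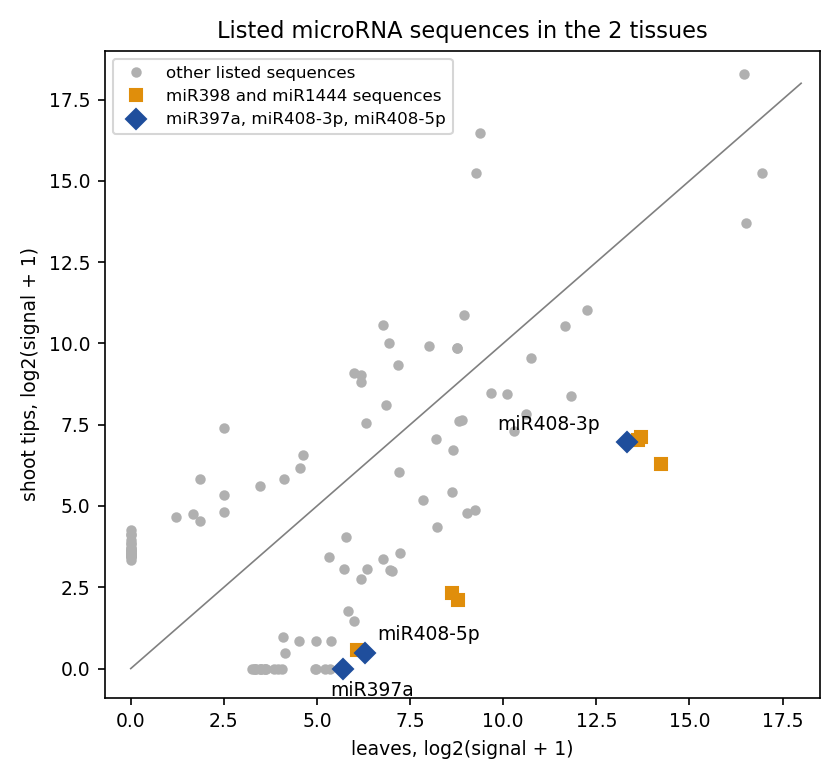
Signal of the 107 listed sequences in leaves (x axis) and shoot tips (y axis), both as log2(signal + 1), with the line of equal values in grey. The 3 members (blue diamonds) and the miR398 and miR1444 sequences (orange squares) lie along the lower right edge; miR408-3p falls beside the miR1444 sequences, and miR408-5p beside miR398c-5p.

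All listed names of the copper-linked families had the same direction. Of 5 families on the list, miR397, miR398, miR408, miR857 and miR1444, the first 3 and miR1444 were listed, with 12 names for 9 sequences, and miR857 had 0 names. Lower in shoot tips were 12 of 12, and 0 were higher, against 62.2% lower over all names. The list of families was chosen with earlier results of these data known, and the names share all libraries. The count is thus a description and no test. In the authors' deposited table the 12 names had a median log2 fold change of -6.55, against -2.75 over all 193 names. By family the median was -7.29 for the 4 names of miR398, -6.62 for both arms of miR408 and -6.55 for the 5 names of miR1444. In shoot tips, library B was the higher one for miR408-3p, for the miR398b/c-3p sequence (99.0 against 55.9), for miR1444b/c (194 against 85.0) and for miR1444d/e (179.9 against 81.9). It was also the higher one for miR1444a (5.71 against 2.36), miR398a (6.66 against 0) and miR398c-5p (0.952 against 0). For miR408-5p library A was higher, with 1 read against 0. How many of all listed names had library B higher is not given here. The part that differences between these libraries have in the shoot tip signals was not tested.

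The predicted targets of the 3 members came to 448 distinct loci of 10305 in the table, 179 for miR397a, 130 for miR408-3p and 143 for miR408-5p. The loci carry P. trichocarpa-style identifiers, and each laccase number below is that of the Swiss-Prot description. Laccase descriptions name no species, and the numbers are read here as those of Arabidopsis entries. A predicted locus was not measured as a transcript, and neither the predictor nor its scores are named in the sources. Laccases made up 33 of the 179 loci of miR397a, or 18.4%, against 0.398% of all loci. For miR408-3p they were 4 of 130 (3.08%), and for miR408-5p 0 of 143. The 3 members thus held 36 of the 41 laccase loci in the table. A locus is in the table only if predicted for a listed name, so all loci include those of the members. With 19 laccase loci there through miR397a alone, the share over all loci is no independent background.

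By laccase number, miR397a covered 8 of the 10 numbers present. It held all 9 loci of laccase-4 and all 8 of laccase-17, which in Arabidopsis act together in stem lignification. It also held all 5 loci of laccase-7, all 4 of laccase-2 and both of laccase-5. Of laccase-11, another lignification gene in Arabidopsis, 3 of 4 loci were predicted for it. Of laccase-12 it held 1 of 2 and of laccase-14 1 of 3. Both loci of laccase-15, which in Arabidopsis oxidises seed coat flavonoids, fell to other listed microRNAs, as did the remaining 3 loci of no member. These shares are over loci in the table, not over all laccase genes of poplar. Loci predicted for miR397a alone are there only through it, which raises its shares.

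MiR408-3p had a different set of laccases. Its 4 loci were both laccase-3 loci (POPTR_0013s14890 and POPTR_0019s14530), 1 laccase-12 locus (POPTR_0010s19080) and 1 laccase-4 locus (POPTR_0001s25580). Only the laccase-4 locus POPTR_0001s25580 was predicted for both families, which is 3.03% of the laccase loci of miR397a and 25.0% of those of miR408. No other listed name was predicted for it. The laccase-12 locus of miR408-3p stood beside a laccase-5 locus of miR397a by identifier, POPTR_0010s19090. A like neighbour pair, POPTR_0008s07370 (laccase-5) and POPTR_0008s07380 (laccase-12), was predicted for miR397a at both loci.

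**Figure D4:**
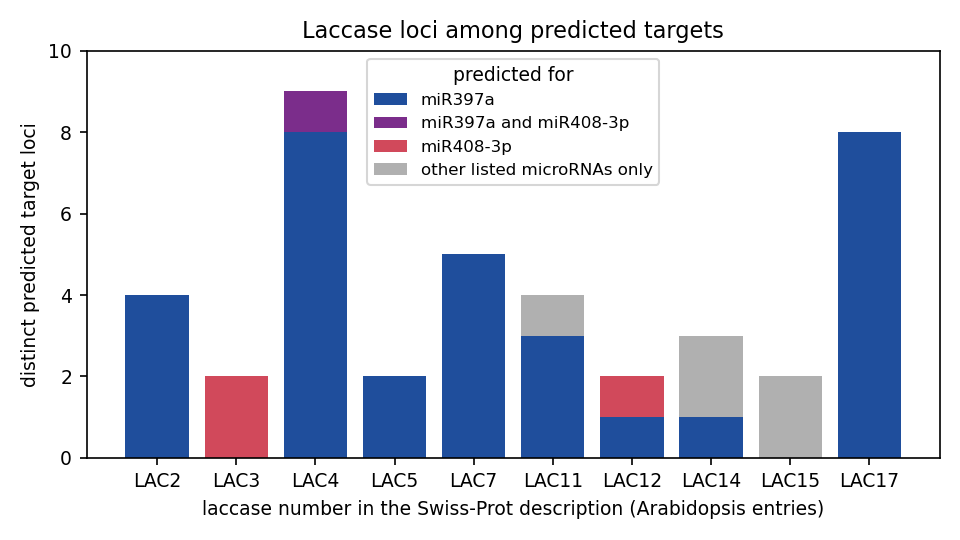
Distinct laccase loci among the predicted targets (y axis) by the laccase number of the Swiss-Prot description (x axis), coloured by the microRNA they were predicted for. MiR397a accounts for all loci of laccase-2, 4, 5, 7 and 17, miR408-3p for both of laccase-3, and 1 laccase-4 locus is predicted for both.

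The 36 laccase loci lay on 13 scaffold numbers by identifier, with 7 on scaffold 0001 and 5 each on 0006, 0009 and 0016. There were 6 pairs of neighbouring identifiers, meaning exactly 10 apart, which held 12 of the loci. In 4 of these pairs both loci had the same laccase number, namely laccase-17 on 0001 and 0011 and laccase-4 on 0006 and 0016. Other loci of the same number lay close but farther apart, such as laccase-7 at POPTR_0016s11500, POPTR_0016s11520 and POPTR_0016s11540. Related loci share sequence, so the 36 loci are not independent predictions.

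Other listed microRNAs shared some of these laccases. Of the 36 loci, 15 were also predicted for another listed name and 19 were predicted for miR397a alone. There were 21 such other names, 17 of them lower and 4 higher in shoot tips, against 62.2% lower over all names. They stand for 11 sequences, 7 lower and 4 higher. The share lower over all 107 sequences is not given here, and these counts were not tested. The most laccase loci outside the members was 5, held by 1 sequence under 3 running numbers, m0791-3p, m2501-5p and m2517-5p, with a signal of 0.787 in shoot tips and 40.9 in leaves. All 5 were laccase-4 loci that miR397a also held, and that sequence stood 16 edits from miR397a. Families better known for other targets, such as miR164 and miR172, had 1 laccase locus each.

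The other copper proteins fell to miR408-3p alone among the members. It was predicted for 3 of the 6 blue copper loci in the table. These were both loci described as basic blue protein, or plantacyanin (POPTR_0001s21660 and POPTR_0487s00220), and the chemocyanin locus POPTR_0002s24290, a class added to the list after the descriptions were seen. No other listed name was predicted for any of these 3. It was also predicted for 2 of the 4 loci of copper-transporting ATPases. One is described as RAN1 (POPTR_0001s15900), which in Arabidopsis delivers copper to ethylene receptors. The other is described as PAA2 (POPTR_0018s08380), which in Arabidopsis supplies copper to plastocyanin, and it was also predicted for miR1444a. Blue copper and copper ATPase loci made up 2.31% and 1.54% of the loci of miR408-3p, against 0.0582% and 0.0388% of all loci. The 3 blue copper loci and the RAN1 locus are in the table only through miR408-3p, so all loci are no independent background.

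Several copper protein classes in the table held no locus of miR397a or miR408. These were 13 polyphenol oxidases, 5 copper/zinc superoxide dismutases, 5 ascorbate oxidase homologs, 5 copper chaperones, 4 copper amine oxidases, 3 copper transporters and 1 monocopper oxidase-like locus. Plastocyanin and cytochrome c oxidase had 0 loci in the table. MiR397a had 0 copper protein loci other than laccases, and miR408-5p had 0 of any class.

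Beyond copper proteins, groups of loci with 1 description held at most 3 loci for any member. Among the 105 described loci of miR408-3p, 6 carried 1 of several descriptions naming cytochrome P450 72A, of the 7 such loci in the table. Members of that group under other names were not counted. By identifier these 6 lay close together on scaffold 0011, from POPTR_0011s10120 to POPTR_0011s10300, so they are not independent predictions. Calcium permeable stress-gated cation channel 1, a channel opened by osmotic stress in Arabidopsis, had 3 loci of the 4 in the table. Both loci described as REVOLUTA, a homeodomain-leucine zipper factor of meristems and leaf polarity best known as a target of miR165 and miR166, were predicted for miR408-3p. One of them, POPTR_0009s01990, was predicted for miR397a as well. MiR397a had 3 loci of a linoleate 13S-lipoxygenase, an enzyme of jasmonate-type oxylipins, which were all of those in the table, 3 of 9 loci of glutamate receptor 2.8, 3 of 5 of phospholipid-transporting ATPase 1 and 3 of 5 of sugar carrier protein C.

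The predicted targets of miR408-5p shared none with its opposite arm. Its 108 described loci carried 98 descriptions, against 96 for the 105 described loci of miR408-3p. No description had more than 2 loci in miR408-5p. Both loci of FAR-RED ELONGATED HYPOCOTYL 3, a transcription factor of far-red light signalling in Arabidopsis, were among its loci. Also held at 2 of 2 were STT3B, F-box protein At1g70590, RNA polymerase II C-terminal domain phosphatase-like 1 and a tRNA (guanine-N(7)-)-methyltransferase. MiR408-5p, with 143 of all 10305 loci, held 1 of 2 caffeoyl-CoA O-methyltransferases, enzymes of monolignol synthesis. It held 1 of 21 peroxidases, a class that also acts in lignification. Of other cell wall classes it held 1 of 45 extensins, 1 of 33 pectinesterases and 0 of 5 expansins, of which miR408-3p held 2. Counts this small were not tested. Between the families, 4 loci were shared in all. Besides POPTR_0001s25580 and POPTR_0009s01990, miR397a and miR408-5p shared a phospholipid-transporting ATPase 1 locus (POPTR_0008s01500), which 11 other names also held, and an RGA3-type disease resistance locus (POPTR_0014s19770). The share of loci predicted for no other listed microRNA was 64.8% for miR397a, 64.6% for miR408-3p and 61.5% for miR408-5p. Loci without a description were 18.4%, 19.2% and 24.5% of the loci of these members, against 20.8% of all loci.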

How the data were processed

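Illumina libraries were made from total RNA of both tissues, per the labels' protocols. The authors' deposited table gave 1 signal per tissue and microRNA name, a normalized abundance of unstated scale, with the authors' log2 fold change and FDR, an adjusted p-value. For trimming, alignment, genome build, scaling, test and target prediction, the entry is: not given in the sources used here. Lines numbered 27252, of which 1215 were repeats and were dropped; each name was read once and each locus counted once. No library depth is stated, and summed signals are not depths.

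The planned count or limma models need a value per library and were not run; no test was added, and the authors' FDR is given. Reads per library were recovered from the signals by finding 2 steps, between 0.2 and 1.5, of which every signal under 60 is a whole-number sum. A solution was kept if it fell within 1.5 times the rounding error plus a small allowance per read. The next solution had to miss by at least 10 times that tolerance. The search for the steps used a larger allowance per read. In shoot tips 2 pairs of steps fitted every signal under 60 and in leaves 7. The pair with the largest product was taken. Tested on signals simulated with the chosen steps and solved with them, 97 of 97 solutions kept for shoot tips and 105 of 105 for leaves returned the reads put in. With the steps supplied, this does not tell the fitting pairs of steps apart. Arms were paired with RNAduplex (ViennaRNA 2.7.2); other steps ran in Python 3.11.15 with pandas 2.3.3, scipy 1.17.1 and numpy 2.4.6. With 0 loci matched in the reference, descriptions are those of the deposited table. The members, families and target classes were chosen with earlier results of these data known. Named were the 3 members, the 3 nearest sequences of each, and the laccase and blue copper loci by count, by identifier where predicted for both families; with no target score, no locus was ranked. Other loci, those predicted for miR408-3p alone included, were named by identifier after their descriptions were seen. Alternatives were pseudocounts, scalings, an FDR of 0.01, a signal filter, left-out libraries and other units of counting.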

Additional observations from a re-analysis of the deposited data

How the results depend on the processing

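Of 33 alternative values, 0 reversed, 19 stayed within counting error or within 1.5 times the count, and 14 moved farther. Pseudocounts and counts of loci could not reverse a direction, so the absence of reversals says little. Log2 fold changes of miR397a were -5.70 with a pseudocount of 1 and -3.49 with 5, which follows from its shoot tip signal of 0. For miR408-5p a pseudocount of 5 gave -3.92. Without miR159 and miR319 in the total, miR408-3p had -4.20 (of listed sequences, a shift of 2.18 for every name) or -5.65 (of 1000000, a shift of 0.72). Leaving out 1 recovered library in turn, with a pseudocount of 1, gave -5.79 to -5.60 for miR397a, -7.24 to -5.82 for miR408-3p and -6.28 to -5.45 for miR408-5p; the value of -7.24 leaves out shoot tip library B. With a signal of at least 10 in both tissues 1 member remained. The log2 arm ratio in shoot tips fell from 8.29 to 4.57 with a pseudocount of 5. MiR408-3p alone gave 4 laccase loci. The scaling, library and member alternatives beyond the listed total were chosen after seeing the data. No paired analysis was possible because the deposited columns pool each tissue and the recovered libraries carry no replicate number. Transcript units, other description columns, target scores, DESeq2 and the replicate block were not run, since the table holds no such values.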
